A study of Mus musculus with 6 samples.

Results

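Complex I (NADH:ubiquinone oxidoreductase) is the first and largest enzyme of the mitochondrial respiratory chain, and its nuclear genes were followed here in haematopoietic stem cells (HSCs) from control and MaeaCsf1r-Cre mice. The genes were chosen by name, as the rows of the expression table whose symbol starts with *Ndufa*, *Ndufb*, *Ndufc*, *Ndufs* or *Ndufv*, with pseudogene and Gm names left out. This gave 45 genes of the 46959 rows, and no expression value was used to choose them. The name also takes in the NDUFAF assembly factors, *Ndufa4*, which is now assigned to complex IV, and *Ndufa4l2*, its hypoxia-inducible relative. Of the 45 genes, 44 passed the filter on low values and were tested among 12955 genes.

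RNA was sequenced from 3 control and 3 MaeaCsf1r-Cre libraries, each from 2000 HSCs sorted from bone marrow as lineage- Sca-1+ c-Kit+ CD150+ CD48- cells and pooled from a pair of mice. The study tested what the loss of MAEA, an E3 ubiquitin ligase subunit that also acts as an adhesion molecule of macrophages, does in HSCs. MaeaCsf1r-Cre mice carried a floxed *Maea* allele and a Cre driven by the *Csf1r* promoter, on a C57BL/6 background. This promoter is the usual driver for mononuclear phagocytes, so that the deletion was not limited to HSCs. Controls were littermates, and their genotype is given in the labels only as control. The labels give an age of 8 weeks for both groups, and the mice were otherwise untreated. Expression is given as CPM (counts scaled to a library's reads), as the authors deposited it, and fold changes are differences of log2(CPM + 1), MaeaCsf1r-Cre minus control.

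Complex I takes electrons from NADH, passes them through flavin and iron-sulphur clusters to ubiquinone, and pumps protons across the inner mitochondrial membrane. Its core subunits come from 7 nuclear and 7 mitochondrial genes, and the rest of the subunits, called supernumerary or accessory, are encoded in the nucleus. The nuclear core subunits form the peripheral arm that protrudes into the matrix. Accessory subunits wrap and stabilise both arms, and assembly factors bind intermediates and are absent from the finished enzyme. HSCs at rest are known for a reliance on glycolysis and for a low use of mitochondrial respiration, which rises when they cycle or differentiate.

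The region around the start site was read for 39 of the 45 genes that had a RefSeq promoter on GRCm38.p6, which runs from upstream of the start into the first exon. The motif of YY1, an activator of many mitochondrial genes, was searched as AAGATGGC on both strands and found in 7 of the 39 genes (17.9%), against 3.19% of 27025 genes with such a window. In all 7 the match lay on the gene's own strand, 23 to 39 bases downstream of the start site, and the ATG within it was the annotated start codon in GENCODE M21. These 7 windows are shown because the match and the start of translation are the same letters, so that the share cannot be told apart from a shared context of the start codon. The motif is in capitals and each sequence runs 5′ to 3′ on the strand of the gene.
*Ndufa3*, chr7:3617373-3617402, plus strand: gctccttgtcgccgccaagaacAAGATGGC
*Ndufa9*, chr6:126849108-126849137, minus strand: cggccgtgaggcattgtgggagAAGATGGC
*Ndufb8*, chr19:44555397-44555426, minus strand: agagtgaaccgcggagaaggtgAAGATGGC
*Ndufc1*, chr3:51408926-51408955, minus strand: gaagaggcggagcctgcggaacAAGATGGC
*Ndufs4*, chr13:114388052-114388081, minus strand: catcctggcgtttgcctacaggAAGATGGC
*Ndufs6*, chr13:73328442-73328471, minus strand: cgtggggtcaagggtcaccggcAAGATGGC
*Ndufs7*, chr10:80249451-80249480, plus strand: aggttgtctgaaggccgaggccAAGATGGC

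The motif of NRF1, the nuclear respiratory factor known for its sites in respiratory chain promoters, was searched as GCGCATGC on both strands and found in 5 of the 39 genes (12.8%), against 3.05% of all genes. These were *Ndufa6*, *Ndufa8*, *Ndufa11*, *Ndufaf4* and *Ndufaf5*. The sequence GCGCATGCGC holds the motif on both strands, and the pairs of matches that overlap in this way were counted as 1 gene. The first match lay upstream of the start site in all but *Ndufaf5*, where it lay downstream. The upstream ones are shown because this factor is the best known of the 5 for respiratory chain genes. The motif is again in capitals, with the letters of the opposite strand where it was found there.
*Ndufa6*, chr15:82354356-82354385, minus strand, from base -83: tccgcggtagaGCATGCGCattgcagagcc
*Ndufa8*, chr2:36049328-36049357, minus strand, from base -8: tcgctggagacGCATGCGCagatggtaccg
*Ndufa11*, chr17:56717691-56717720, plus strand, from base -60: acctgcactgcGCGCATGCgcgcacgcctt
*Ndufaf4*, chr4:24897959-24897988, plus strand, from base -113: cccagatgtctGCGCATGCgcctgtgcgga
The ETS motif, CCGGAAG on either strand, was in 5 of the 39 genes (12.8%) and in 9.93% of all genes. Among these was *Ndufb7*, the 1 complex I gene whose groups did not overlap, with the motif from base -20.
*Ndufb7*, chr8:83566727-83566755, plus strand: gcctagatgacCCGGAAGacactgaaggg
The SP1 motif, GGGCGG on either strand, was in 20 of the 39 genes (51.3%) and in 38.2% of all genes. The CCAAT box, as CCAAT or its complement, was in 13 (33.3%) and in 41.1%. *Ndufa6*, *Ndufa8* and *Ndufaf4* held the NRF1 motif, *Ndufaf1*, *Ndufb6* and *Ndufs3* the ETS motif, and *Ndufa3* and *Ndufb8* the YY1 motif together with an SP1 motif. In *Ndufs3* the letters of an SP1 and an ETS match overlapped. A match is a description of these letters and not of a bound site.

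The number of reads behind the CPM scaling was 32968000 to 39614000 in control and 44158000 to 60935000 in MaeaCsf1r-Cre libraries, and 3 reads were worth 0.0492 to 0.0910 CPM, which covers counting error only. *Maea* was at 108, 116 and 123 CPM in control and at 76.9, 88.6 and 101 CPM in MaeaCsf1r-Cre replicates 1, 2 and 3. Each of these was lower than any control, as held for 6.06% of all genes. The fold change of *Maea* was -0.39 ± 0.13 (SE, adjusted p = 0.967, and 0.218 with replicate number in the model, limma). The transcript was thus still counted, and the values do not separate its floxed exons. Of 8 HSC markers all were detected, with a summed level of 1223 to 2035 CPM in control and 829 to 1484 CPM in MaeaCsf1r-Cre libraries. Of 6 B cell markers 5 were below 1 CPM in every library, *Ms4a1* and *Pax5* being at 0, and *Cd79b* was at 12.9 to 27.2 CPM. All 4 T cell markers were below 1 CPM in every library. The summed level of 8 macrophage markers was 24.5 to 71.1 CPM in control and 7.45 to 51.6 CPM in MaeaCsf1r-Cre libraries, and all 8 were lower by group mean. Over all genes, limma's moderated test called 1 of 12955 genes (0.00772%) at an adjusted p under 0.05, and it was no complex I gene.

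No complex I gene passed the test between MaeaCsf1r-Cre and control HSCs, and the fold changes were small and mostly positive. By group mean this sign rested on control replicate 2 and MaeaCsf1r-Cre replicate 1. Between libraries of the same replicate number the median differences were 0.13, 0.08 and 0.13. Of the 44 genes, 40 had a positive fold change, against 39.1% of all genes tested, and their median was 0.10 on the log2 scale, against -0.06 for all genes. The fold changes ran from -0.04 for *Ndufaf1* to 0.25 for *Ndufa3*. The smallest adjusted p was 0.967 (limma, Benjamini-Hochberg adjusted over 12955 genes), and 0 of the 44 had even an unadjusted p under 0.05, as 3.99% of all genes did. *Ndufb7* alone was higher in each MaeaCsf1r-Cre library than in each control library, 1 of 44 against 2.49% of all genes, and 0 complex I genes were lower in this way, against 6.06%. In bulk RNA a change in the cells that make up a sort and a change of RNA per cell cannot be told apart.

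**Figure D1:**
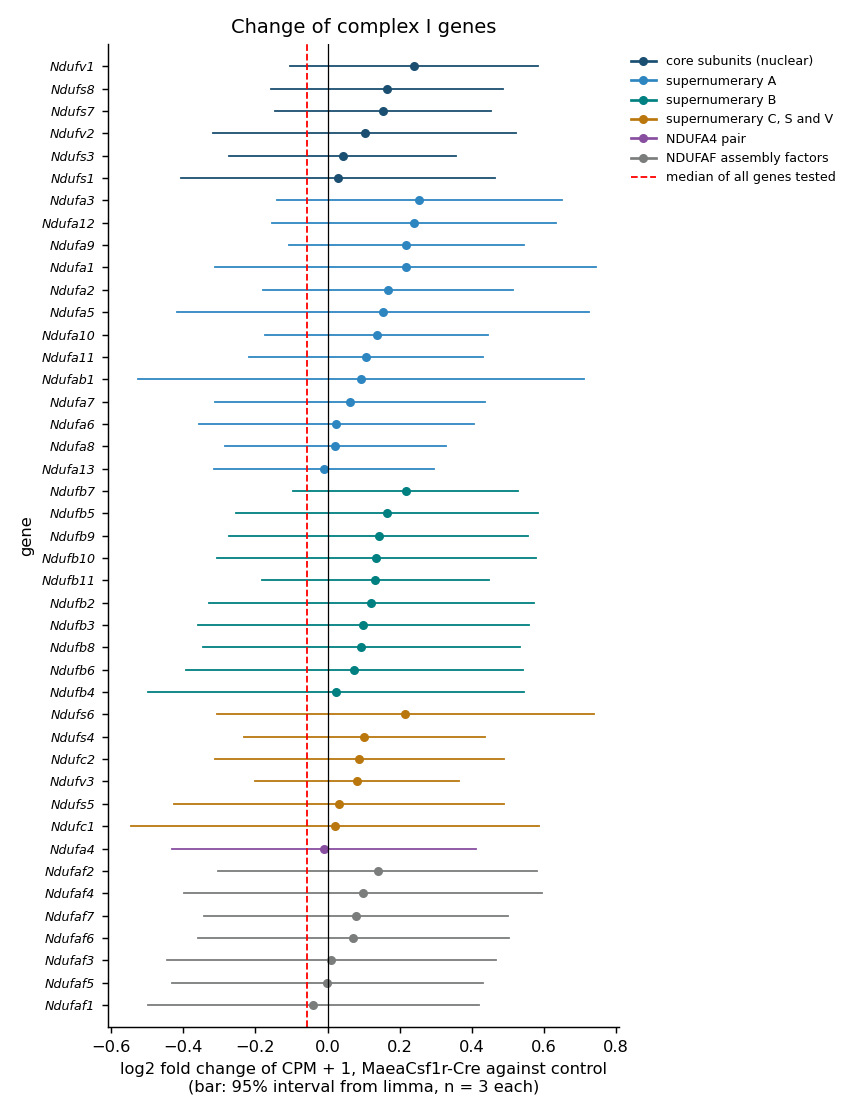
Log2 fold change of CPM + 1 (x axis) of 43 of the complex I genes tested (y axis), MaeaCsf1r-Cre against control, as points with 95% intervals from limma (n = 3 each), coloured by role and ordered within it. Points of 39 genes lie to the right of 0, and every interval spans 0; the dashed line is the median of all genes tested, at -0.06.

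The scaling of the libraries moved the counts of genes on each side of 0. With median ratio scaling all 44 complex I genes were higher, but so were 52.1% of all genes, and their medians were 0.17 and 0.01. Higher without overlap were 3 of 44, against 5.06% of all genes. With quantile normalisation 43 of 44 were higher against 53.1% of all genes, and 4 of 44 were higher without overlap against 5.19%. Complex I transcripts are short, with a median length of 866 bases, and 90.2% of the genes tested were longer than this median. Longer genes had lower fold changes over the 12449 genes with a length (Spearman's rho -0.29, with genes that are no replicates of each other). After a loess correction for length the median of the complex I genes was 0.05 against -0.03, and 28 of 44 were higher against 44.7% of all genes. The part of transcript length in the difference was not tested further.

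The replicate numbers of the labels were taken to pair the libraries, as same-numbered ones deviated from their group means together. Within these pairs the differences of the complex I genes had medians of 0.13, 0.08 and 0.13 in pairs 1, 2 and 3, where the medians of all genes were -0.03, -0.14 and 0.01. In all 3 pairs 22 of 44 genes were higher, against 13.2% of all genes, and 0 were lower, against 23.5%. After the length correction 13 of 44 were higher in all 3 pairs, against 13.9% of all genes, and 3 of 44 were lower, against 19.0%. With the number as a replicate block in the model, 4 complex I genes (*Ndufv1*, *Ndufa3*, *Ndufa9* and *Ndufa12*) were higher at an unadjusted p under 0.05, 9.09% of the 44 against 3.11% of all genes. Counted in either direction, it was the same 4 of 44, against 1805 of 12955 genes. With the length correction and the replicate block together, 1 of 44 complex I genes had an unadjusted p under 0.05, where 1500 of 12449 genes did. None passed the adjusted threshold with the replicate block, where 1 of 12955 genes did (0.00772%), and the smallest adjusted p of a complex I gene was 0.292, for *Ndufv1*.

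**Figure D2:**
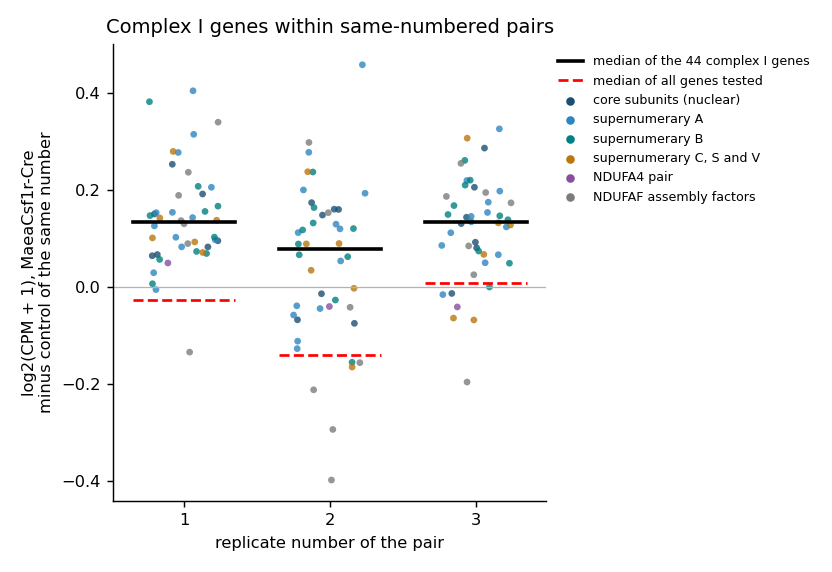
Difference of log2(CPM + 1) between the MaeaCsf1r-Cre and the control library of the same replicate number (y axis) in each of the 3 pairs (x axis), 1 point per complex I gene coloured by role. Black bars, the medians of the 44 genes, lie at 0.13, 0.08 and 0.13 and above the dashed medians of all genes tested in each pair.

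The libraries differed more within a group than the groups did. Summed over the 45 genes, control replicates 1, 2 and 3 held 3716, 2822 and 3249 CPM, and MaeaCsf1r-Cre replicates 1, 2 and 3 held 4084, 2955 and 3551 CPM. Replicate 1 was the highest and replicate 2 the lowest in both groups, and the ranges overlapped. The means were 3262 ± 447 and 3530 ± 564 CPM (SD, n = 3 each), so that the difference of the means was smaller than either SD. MaeaCsf1r-Cre replicate 1 held the highest value of 39 of the 44 genes, against 25.4% of all genes, and a replicate 2 of either group held the lowest value of 43 of 44, against 44.1%. The gene apart from the others was *Ndufv3*, a small subunit beside the NADH-oxidising site, at 46.0, 50.3 and 53.1 CPM in control and at 50.9, 51.6 and 55.7 CPM in MaeaCsf1r-Cre libraries. It was lowest in control replicate 1 and was singled out after its values were seen.

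**Figure D3:**
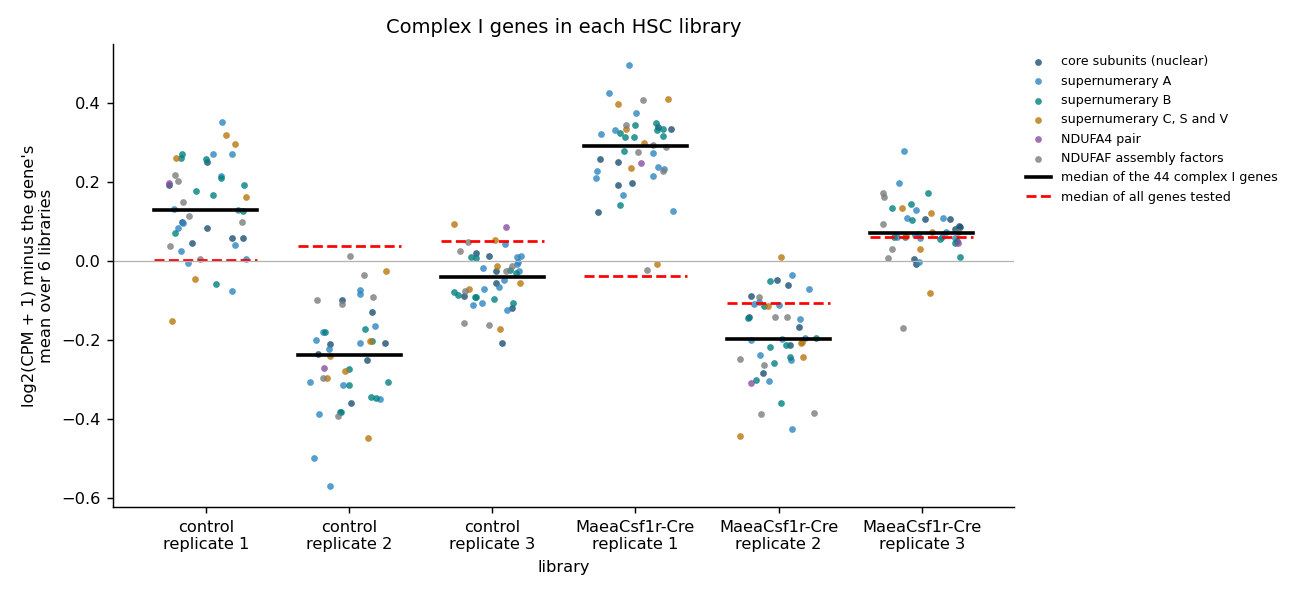
Deviation of each complex I gene from its own mean over the 6 libraries, as log2(CPM + 1) (y axis), in each library (x axis), 1 point per gene coloured by role. Black bars are medians of the 44 genes, highest in MaeaCsf1r-Cre replicate 1 at 0.29 and lowest in control replicate 2 at -0.24; dashed bars are medians of all genes tested and run from -0.11 to 0.06.

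The difference between the group means rested on the libraries at both ends. Without control replicate 2 the median of the complex I genes was -0.01 and 20 of 44 were higher, and without MaeaCsf1r-Cre replicate 1 the median was -0.01 and 20 of 44 were higher. Each such omission also leaves a same-numbered library without its partner. In both remaining pairs, 36 of 44 were higher without control replicate 2, against 27.5% of all genes, and 0 lower, against 28.7%. Without MaeaCsf1r-Cre replicate 1, 22 of 44 were higher in both, against 18.2%, and 2 lower, against 35.3%. Without control replicate 1 or MaeaCsf1r-Cre replicate 2, 44 of 44 were higher, with medians of 0.21 and 0.23. Higher without overlap were then 6 of 44 and 11 of 44, against 8.36% and 9.83% of all genes. Of the marker lists, the sum of the erythroid one followed the order of replicates 1, 3 and 2 within each group most closely. No single erythroid marker held this order in both groups. The sums of the other lists followed it in part or not at all. The summed level of the 8 HSC markers was 1223, 2035 and 1539 CPM in control and 829, 1209 and 1484 CPM in MaeaCsf1r-Cre replicates 1, 2 and 3, lowest in the library with the highest complex I level and highest in the library with the lowest, but second lowest in MaeaCsf1r-Cre replicate 2, where complex I was low. The 6 erythroid markers summed to 436, 156 and 190.0 CPM in control and to 383, 186 and 326 CPM in MaeaCsf1r-Cre replicates 1, 2 and 3. The largest part of it was *Klf1*, a transcription factor of erythroid progenitors, at 319, 119 and 94.0 CPM in control and at 331, 122 and 202 CPM in MaeaCsf1r-Cre libraries. The haemoglobin genes were at most 40.6 CPM each. Among MaeaCsf1r-Cre libraries *Hba-a1*, *Hba-a2* and *Hbb-bt* were lowest in replicate 1, where complex I was highest, and *Hbb-bs* in replicate 2. The 7 neutrophil markers summed to 219, 107 and 27.8 CPM in control and to 114, 58.9 and 4.58 CPM in MaeaCsf1r-Cre libraries, with *S100a9*, *Ngp*, *Ltf* and *Camp* below 1 CPM in each. The neutrophil sum was lowest in replicate 3 of each group. The 5 megakaryocyte markers summed to 367, 213 and 969 CPM in control and to 284, 593 and 324 CPM in MaeaCsf1r-Cre libraries and did not follow the complex I level. The part of these cells or states in the complex I levels was not tested.

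**Figure D4:**
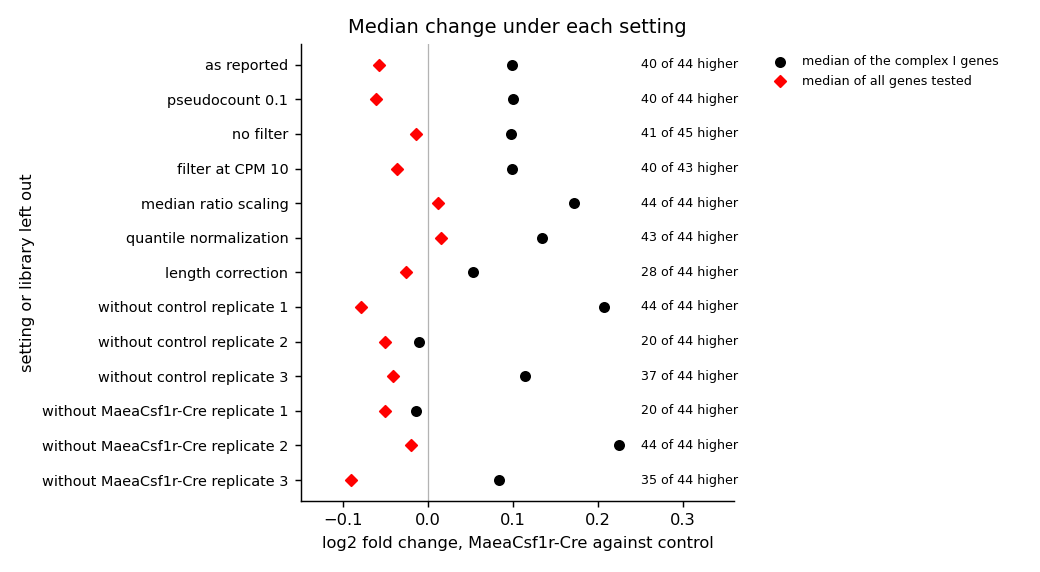
Median log2 fold change (x axis), MaeaCsf1r-Cre against control, of the complex I genes (black) and of all genes tested (red diamonds) as reported, under 6 other settings and with each library left out (y axis), with the number of complex I genes higher by group mean. The black points lie between -0.01 and 0.23, and those without control replicate 2 and without MaeaCsf1r-Cre replicate 1 lie just below 0.

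Among the core subunits of the NADH-oxidising end, *Ndufv1*, the flavoprotein that binds NADH and FMN, was at 158, 127 and 129 CPM in control and at 189, 143 and 158 CPM in MaeaCsf1r-Cre replicates 1, 2 and 3. Each MaeaCsf1r-Cre library was above the control of its number. The groups overlapped because control replicate 1 was above MaeaCsf1r-Cre replicate 2 and as high as replicate 3. The fold change was 0.24 (standard error 0.15, 95% interval -0.11 to 0.58). With the replicate block the standard error was 0.09 and the unadjusted p 0.0256 (limma). *Ndufv2*, the iron-sulphur protein beside it, was at 195, 132 and 172 CPM in control and at 204, 147 and 183 CPM in MaeaCsf1r-Cre libraries, a fold change of 0.10 ± 0.18 (SE). *Ndufs1*, which carries the next iron-sulphur clusters and is the largest subunit, was at 165, 120 and 130 CPM in control and at 175, 114 and 138 CPM in MaeaCsf1r-Cre libraries, a fold change of 0.03 ± 0.19 (SE).

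Other core subunits line the path to ubiquinone. *Ndufs7* helps to form the ubiquinone pocket, *Ndufs8* carries iron-sulphur clusters and *Ndufs3* is a structural core subunit. *Ndufs7* was at 132, 107 and 114 CPM in control and at 141, 119 and 131 CPM in MaeaCsf1r-Cre replicates 1, 2 and 3. *Ndufs8* was at 104, 84.2 and 96.5 CPM in control and at 119, 94.2 and 107 CPM in MaeaCsf1r-Cre libraries. Both were higher in all 3 pairs and overlapped between the groups, with fold changes of 0.15 ± 0.13 and 0.17 ± 0.14 (SE). *Ndufs3* was at 58.2, 51.4 and 57.1 CPM in control and at 64.7, 51.0 and 56.5 CPM in MaeaCsf1r-Cre libraries. Its groups overlapped, and its fold change was 0.04 ± 0.14 (SE). Over the 7 core subunits the median fold change was 0.10, all 7 were positive and 4 were higher in all 3 pairs.

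The 13 accessory subunits of the A series comprise *Ndufa1* to *Ndufa3*, *Ndufa5* to *Ndufa13* and *Ndufab1*, the mitochondrial acyl carrier protein. Their median fold change was 0.14, 12 were positive and 7 were higher in all 3 pairs, and fold changes ran from -0.01 for *Ndufa13* to 0.25 for *Ndufa3*. *Ndufa9*, a subunit of the peripheral arm at its junction with the membrane arm, was at 121, 103 and 112 CPM in control and at 151, 112 and 130 CPM in MaeaCsf1r-Cre replicates 1, 2 and 3. *Ndufa3*, a small subunit of the membrane arm, was at 52.3, 43.1 and 56.9 CPM in control and at 69.6, 49.7 and 63.4 CPM in MaeaCsf1r-Cre libraries. In both genes MaeaCsf1r-Cre replicates 1 and 3 were above every control, and replicate 2 was within the control range. The fold changes were 0.22 ± 0.14 and 0.25 ± 0.17 (SE), with an unadjusted p of 0.0439 for *Ndufa9* and of 0.0432 for *Ndufa3* with the replicate block (limma). *Ndufa3* overlaps exons of *Tfpt*, and the library chemistry did not mark strand, so that reads in the overlap cannot be assigned by strand. *Ndufa12*, named for its p with the replicate block, had a fold change of 0.24 ± 0.17 (SE), and its processed pseudogene is described with the other copies.

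The 10 accessory subunits of the B series, *Ndufb2* to *Ndufb11*, sit in the membrane arm, as does *Ndufb1*, which was not analysed here. Their median fold change was 0.13, all 10 were positive and 8 were higher in all 3 pairs. *Ndufb7*, a subunit of the membrane arm on the side of the intermembrane space, lies on chromosome 8 of GRCm38 from 83566671 to 83571626 on the plus strand. It was at 67.0, 61.9 and 65.3 CPM in control and at 87.6, 67.4 and 72.4 CPM in MaeaCsf1r-Cre replicates 1, 2 and 3. All MaeaCsf1r-Cre libraries were above all controls, and MaeaCsf1r-Cre replicate 2 was above control replicate 1 by less than 1 CPM. The fold change was 0.22 (standard error 0.13, 95% interval -0.09 to 0.53, adjusted p = 0.967, and 0.396 with the replicate block, limma). After the length correction its groups overlapped, and 0 complex I genes were then higher without overlap, against 2.43% of all genes. *Ndufb11*, an X-linked subunit of the same arm, was at 67.8, 56.8 and 60.5 CPM in control and at 71.2, 59.5 and 72.7 CPM in MaeaCsf1r-Cre libraries, a fold change of 0.13 ± 0.14 (SE).

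The accessory subunits *Ndufc1*, *Ndufc2*, *Ndufs4*, *Ndufs5*, *Ndufs6* and *Ndufv3* had a median fold change of 0.08. All 6 were positive, against 39.1% of all genes, and 2 were higher in all 3 pairs, against 13.2%. After the length correction their median was -0.02, against -0.03 for all genes. It was then 0.08 for the core subunits and 0.06 for both the A and the B series. *Ndufs6*, a zinc-binding subunit needed late in the building of the peripheral arm, was at 75.1, 44.5 and 54.0 CPM in control and at 80.6, 52.7 and 67.1 CPM in MaeaCsf1r-Cre replicates 1, 2 and 3. *Ndufs4*, whose loss causes Leigh syndrome and is used to model complex I deficiency in mice, was at 54.5, 48.8 and 60.1 CPM in control and at 66.4, 51.9 and 57.5 CPM in MaeaCsf1r-Cre libraries. *Ndufs6* varied by replicate number more than by group, 1.81-fold from its lowest to its highest library, and the controls of *Ndufs4* spanned 2 of its 3 MaeaCsf1r-Cre values. Their fold changes were 0.22 ± 0.23 and 0.10 ± 0.14 (SE).

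*Ndufa4* had the highest level per kb of transcript of the 44 complex I genes, and its group means lay within the spread of the libraries. It was at 199, 144 and 184 CPM in control and at 206, 140 and 179 CPM in MaeaCsf1r-Cre replicates 1, 2 and 3. The fold change was -0.01 ± 0.18 (SE), with a 95% interval of -0.43 to 0.41, and it was positive at 0.06 with median ratio scaling. Its relative *Ndufa4l2*, on chromosome 10 of GRCm38 from 127514967 to 127517154, was listed at 0 CPM in 5 libraries and at 0.0226 CPM, about 1 read, in MaeaCsf1r-Cre replicate 3. This was under the 3 reads taken as the limit of detection in each library, so *Ndufa4l2* was not detectable at this depth and was not tested.

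The 7 NDUFAF assembly factors had a lower median level than the subunits, 14.7 CPM per kb of transcript against 94.0 for the 36 structural subunits. The subunits *Ndufb2*, *Ndufb4* and *Ndufab1* lay within the range of the assembly factors. Their median fold change was 0.07, 5 were positive and 1 was higher in all 3 pairs. *Ndufaf2*, a chaperone of late assembly and a paralogue of *Ndufa12*, was at 13.8, 10.7 and 13.9 CPM in control and at 16.4, 12.0 and 14.1 CPM in MaeaCsf1r-Cre replicates 1, 2 and 3. *Ndufaf4*, which acts in the assembly of the peripheral arm, was at 52.5, 34.1 and 45.8 CPM in control and at 60.0, 42.1 and 39.8 CPM in MaeaCsf1r-Cre libraries. In *Ndufaf2* the groups overlapped with every pair higher, and in *Ndufaf4* pair 3 was lower. Their fold changes were 0.14 ± 0.19 and 0.10 ± 0.21 (SE). *Ndufaf5*, a hydroxylase of *Ndufs7*, had the lowest level per kb of the 44 complex I genes, 6.02 CPM per kb, at 7.64, 6.46 and 6.92 CPM in control and at 6.88, 6.25 and 7.94 CPM in MaeaCsf1r-Cre libraries. The other factors, *Ndufaf1*, *Ndufaf3*, *Ndufaf6* and *Ndufaf7*, had fold changes of -0.04, 0.01, 0.07 and 0.08.

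**Figure D5:**
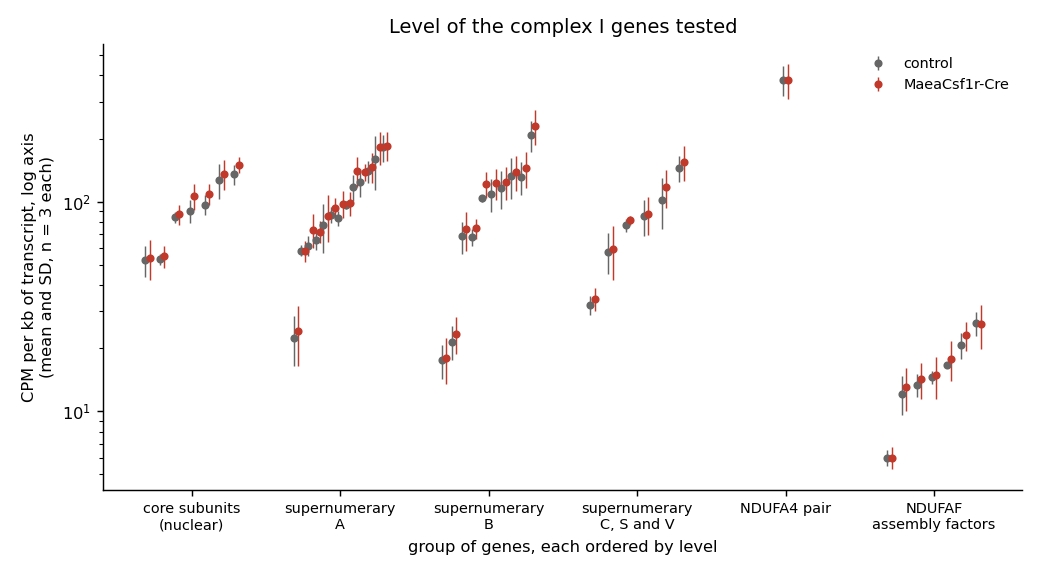
CPM per kb of transcript (y axis, log scale) of the 44 complex I genes tested by role (x axis), each gene as its control (grey) and MaeaCsf1r-Cre (red) mean with SD bars (n = 3 each), ordered by level within a role. *Ndufa4* lies highest, at 381 CPM per kb. The assembly factors lie at 6.02 to 26.2 CPM per kb, a range that also holds *Ndufb2*, *Ndufb4* and *Ndufab1*.

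The genes differed in how far they moved between libraries. The swing from the lowest to the highest library was 1.94-fold for *Ndufa1*, an X-linked subunit of the membrane arm, which was at 84.7, 46.9 and 68.9 CPM in control and at 91.1, 64.9 and 73.1 CPM in MaeaCsf1r-Cre replicates 1, 2 and 3. It was 1.92-fold for *Ndufa5*, a subunit of the peripheral arm, at 57.3, 33.2 and 47.2 CPM in control and at 63.8, 38.1 and 51.1 CPM in MaeaCsf1r-Cre libraries. Both followed the replicate number, with number 1 high and number 2 low in each group, and both were higher in all 3 pairs, with fold changes of 0.22 ± 0.23 and 0.15 ± 0.25 (SE). With the replicate block these standard errors were 0.11 and 0.10. At the other end, *Ndufv3* swung 1.21-fold. *Ndufa1*, *Ndufa5* and the other genes of this comparison were singled out after their values were seen.

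Some named genes share a chromosome. On GRCm38 *Ndufv1* lies on chromosome 19 from 4007384 to 4012806 and *Ndufs8* on the same chromosome from 3908863 to 3912774, both on the minus strand. *Ndufa9* lies on chromosome 6 from 126821721 to 126849136, *Ndufa4* on chromosome 6 from 11900292 to 11907497 and *Ndufa3* on chromosome 7 from 3617373 to 3620327. *Ndufs4* and *Ndufs6* lie on chromosome 13, from 114287795 to 114388258 and from 73319838 to 73328542. *Ndufs6* overlaps exons of *Mrpl36*, a mitochondrial ribosomal protein gene, and *Ndufs3* those of *Kbtbd4*, so that their reads can be shared in the same way as those of *Ndufa3* and *Tfpt*.

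Levels per kb differed between subunits of each role. The core subunits ran from 53.4 CPM per kb for *Ndufs1* to 142 for *Ndufs7*, the A series from 23.3 for *Ndufab1* to 184 for *Ndufa6*, the B series from 17.8 for *Ndufb4* to 219 for *Ndufb9*, and the C, S and V subunits from 33.3 for *Ndufs4* to 150.2 for *Ndufc2*. A length is the median over annotated transcripts, so a gene with a long minor transcript reads low on this scale. The lowest accessory subunits of the A and B series, *Ndufab1* and *Ndufb4*, each had a near-identical copy elsewhere in the annotation with counts of its own. Whether reads of these copies came from *Ndufab1* and *Ndufb4* was not tested. *Ndufv3* varied least over the 6 libraries of the 44 complex I genes (CV 6.32%), and *Ndufab1* most (26.8%).

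Reads can be split between a gene and its copies. Of the 45 genes, 13 shared a stretch of at least 150 bases at 95% identity or more with another annotated gene, and 16 overlapped exons of another gene. The processed pseudogene of *Ndufa12*, listed as *Gm15920*, held 45.6 to 51.7% of the summed CPM of both rows in each library. Summed, gene and copy were at 103 ± 8.86 CPM in control and 117 ± 20.7 CPM in MaeaCsf1r-Cre HSCs (SD, n = 3 each), a log2 ratio of 0.18. *Gm4459* held 45.3 to 50.3% of the sum with *Ndufab1*, and *Gm3244* held 63.9 to 70.5% of the sum with *Ndufb4*. The fold change of the *Ndufb4* row was 0.02, that of its copy 0.24, and the log2 ratio of the summed means 0.18. The copies of *Ndufs3* (*Gm12251*) and *Ndufs5* (*BC002163*) held a smaller part, 18.5 to 22.5% and 13.1 to 27.7%. In 3 more genes another annotated gene with a shared stretch was counted at over 10% of their level. These were *Ndufb5* with *Mrpl47* (21.6 CPM), *Ndufb6* with *Toporsos* (10.6 CPM) and *Ndufaf7*, whose 8 such genes summed to 226 CPM against 30.8 CPM for *Ndufaf7* itself. The values of these 8 complex I genes, fold changes included, are uncertain for this reason.

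Other genes of the pathway were taken from fixed lists. The 7 complex I subunits of mitochondrial DNA were listed at 0 in every library, as were the other mitochondrial genes, so the core that they encode could not be measured here. Of 15 symbols listed for assembly factors with other names, 12 had a row, and all 12 were tested. Of these, 0 passed the test in either direction, and 7 were positive with a median of 0.07. *Foxred1*, an assembly factor with the smallest p among these, was at 41.3, 33.6 and 44.8 CPM in control and at 49.3, 45.1 and 44.5 CPM in MaeaCsf1r-Cre replicates 1, 2 and 3, overlapping only through control replicate 3. Its fold change was 0.22 ± 0.15 (SE). The 39 nuclear subunits of complexes II to V also had a small positive median, 0.14, with 36 positive, 27 higher in all 3 pairs and 0 called in either direction by limma. Of these 39, 0 had an unadjusted p under 0.05 without the replicate block, where 517 of the 12955 genes did, and 12 with it, where 1805 did. *Cox6b1*, a subunit of complex IV, was at 123, 116 and 128 CPM in control and at 174, 130 and 147 CPM in MaeaCsf1r-Cre libraries, all above the controls, with a fold change of 0.29 ± 0.13 (SE, adjusted p = 0.967, limma). Whether complex I genes differed from those of complexes II to V was not tested.

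Of 12 regulators of mitochondrial biogenesis listed, 11 were tested, 5 were positive, against 39.1% of all genes, and 0 were called in either direction. Their median was -0.10, against -0.06 for all genes, and -0.02 after the length correction. *Polrmt*, the mitochondrial RNA polymerase, was at 46.4, 37.9 and 43.3 CPM in control and at 55.5, 43.9 and 49.6 CPM in MaeaCsf1r-Cre replicates 1, 2 and 3, higher in all 3 pairs with overlapping groups. Its fold change was 0.22 ± 0.15 (SE). *Yy1*, whose motif is shown above, was at 25.3, 26.7 and 29.3 CPM in control and at 21.4, 23.1 and 25.1 CPM in MaeaCsf1r-Cre libraries. All 3 MaeaCsf1r-Cre values were below all controls, by less than 1 CPM at the closest, and *Yy1* is the 1 of 11 regulators tested for which this held, against 6.06% of all genes. Its fold change was -0.22 ± 0.14 (SE, adjusted p = 0.967, limma), and -0.10 after the length correction. *Yy1* was named after its values were seen. *Nrf1* had a fold change of -0.10 ± 0.13 (SE).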

How the data were processed

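The authors sorted HSCs, prepared cDNA with SMART-Seq v4 and indexed it with Nextera XT, a chemistry that does not mark strand. Their single-end reads were trimmed with Trim Galore, aligned to mm10 with STAR 2.5.3a and quantified on Ensembl release 83 transcripts in Partek Flow. The table they deposited holds CPM with 0.0001 added, which was subtracted. Of the low values, 76.1 to 78.2% lay on whole reads (tolerance 0.05), so counts were not recovered and no count test was used.

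A gene entered the test if 3 or more libraries had a CPM of 1 or higher. The test used log2(CPM + 1) with limma 3.58.1 (R 4.3.3) and a mean-variance trend, two-sided and Benjamini-Hochberg adjusted over 12955 genes, and was repeated with replicate number as a blocking term. Deviations of same-numbered libraries from their group means correlated over genes with an r of 0.627, 0.523 and 0.397, which was taken as pairing. Those of the other pairs were negative. As deviations sum to 0 within a group, negative values on balance follow from the positive ones and are no separate support. Nothing says which mice the libraries share, so p-values measure the spread between these libraries. The procedure was tested on simulated data. Symbols were matched to GENCODE M21 (44027 of 46959 rows), of which 27 had become dates and 4 rows shared a symbol. Copies were sought with BLAST 2.17.0.

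The named genes were the nuclear core subunits, genes whose groups did not overlap, the 2 smallest unadjusted p of each role, the highest and lowest level per kb, *Ndufa4*, *Ndufa4l2*, *Maea* and the smallest p of each other list. The values of 1 gene among the complex I genes are not reported here, though the counts and medians include it. The genes and lists were chosen with earlier results of these data known. Counts within pairs, counts by group mean and over all genes under the alternatives, and sums with copies, were added after seeing the data.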

Additional observations from a re-analysis of the deposited data

How the results depend on the processing

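No complex I gene was called under any of the 15 alternatives, which were no filter on low values, a stricter filter (CPM of 10), a smaller pseudocount (0.1), median ratio and quantile scaling, the replicate block, no mean-variance trend, length correction without and with the block, and each library left out. The replicate block kept 0 complex I genes called, and over all genes it called 1 gene, while the length correction with the replicate block called 24 and the stricter filter called 0. Complex I genes higher without overlap were 3 with median ratio scaling, 4 with quantile normalisation and 0 with length correction. With 1 library left out, 1 to 11 of 44 complex I genes were higher without overlap, against 3.99 to 9.83% of all genes, and 0 were lower. By group mean 20 to 44 of 44 were then higher. The median fold change was -0.01 to 0.23, and the calls over all genes 0 to 1. The sign turned for *Ndufa4* (0.064) and *Ndufaf5* (0.065) with median ratio scaling, for *Ndufaf5* (0.17) with quantile normalisation, and for *Ndufs3* (-0.0051) with length correction, with or without the replicate block. With 1 library left out, fold changes ran from -0.15 to 0.14 for *Ndufa4*, -0.082 to 0.23 for *Ndufaf4*, -0.081 to 0.070 for *Ndufaf5*, -0.13 to 0.18 for *Ndufs1*, -0.047 to 0.12 for *Ndufs3* and -0.051 to 0.23 for *Ndufv2*. The cause was not tested. The other genes named by rule kept their direction under each alternative, but with 1 library left out ran from 0.047 to 0.42 for *Ndufs6*, 0.0093 to 0.18 for *Ndufs4*, 0.026 to 0.24 for *Ndufaf2*, 0.11 to 0.30 for *Ndufb7*, 0.076 to 0.22 for *Ndufb11*, 0.14 to 0.39 for *Ndufa3*, 0.11 to 0.32 for *Ndufa9*, 0.13 to 0.34 for *Ndufv1*, 0.088 to 0.24 for *Ndufs7*, 0.082 to 0.25 for *Ndufs8*, 0.10 to 0.31 for *Foxred1*, 0.18 to 0.39 for *Cox6b1*, 0.14 to 0.30 for *Polrmt* and -0.48 to -0.29 for *Maea*. With 3 libraries a group, the 95% intervals of all 44 complex I genes tested spanned 0, so changes of this size were not detectable gene by gene.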
